A study of Homo sapiens with 6 samples.

Results

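The genes described here are the olfactory receptor genes of human chromosome 11, as they stand in the merged transcript assembly of a study on EndoC-βH1 cells. EndoC-βH1 is an established human line with properties of insulin-producing beta cells. They were taken as the chromosome 11 models whose gene name begins with OR, a family number, subfamily letters and a member number. This gave 171 of the 25211 gene names in the file, carried by 178 of its 55083 transcript models. A further 223 gene names of the same form lay on other chromosomes. The study compared 3 INS-KD libraries with 3 negative control libraries, all from cells transduced by lentivirus with an inducible short hairpin RNA aimed at the promoter of the insulin gene INS. The INS-KD cells received doxycycline at 1 mg/mL for 7 days, and the negative control cells received none. The assembly is 1 file for all 6 libraries, and 0 of its 555595 exon lines carries a score, so depth is unknown, and neither the level of a receptor in these cells nor a difference between the groups was analysed here. Each value below is a property of gene models and of the genome sequence under them, and a model in the file does not show that its gene was transcribed. No value has a replicate. Genes of tandem arrays are also not independent of each other, so the comparisons are descriptions without a test, and the 95% intervals (exact Clopper-Pearson) cover counting error only.

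Olfactory receptors are G protein-coupled receptors of the rhodopsin type, through which sensory neurons of the nose detect odorants. Each mature neuron is known to use a single receptor gene chosen from the whole repertoire. The number after OR names the family and the letters name the subfamily, and both were assigned from protein similarity, so that similarity within families is partly built into the names. Families 51, 52, 55 and 56 make up class I, the fish-like receptors, and all other families are class II, the larger class of land vertebrates. These receptors are known chiefly from the nose, and their use in pancreatic beta cells was not examined here. OR51E1 and OR51E2 are known outside the nose, chiefly from prostate.

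The members fell into 12 families and 82 subfamilies. OR5 was the largest with 36 members, followed by OR4 and OR52 with 24 each, OR8 with 23, OR51 with 22 and OR10 with 15. OR56 had 6 members, OR2, OR6 and OR9 had 5 each, OR7 had 4 and OR1 had 2. All 52 class I names of the file, in OR51, OR52 and OR56, were on chromosome 11, and 0 were elsewhere. OR8 was also found almost only here, with 1 name on another chromosome against its 23 here, whereas OR1 and OR2 had 26 and 64 names elsewhere. The 4 OR7 members, OR7E12P, OR7E14P, OR7E5P and OR7E2P, were pseudogene names of 1 subfamily, and each lay in a different array or alone. In all, 7 members carried only a non-coding accession, and the same 7 had a name ending in P.

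In the RefSeq models of the file, most of these genes read as compact, intronless units. Of the 171, 163 (95.3%, 95% interval 91.0 to 98.0%) had single-exon models alone, against 14.7% of all gene names in the file. The share was 94.2% in class I (49 of 52) and 95.8% in class II (114 of 119). It was 95.1% in olfactory receptors on other chromosomes (212 of 223), an interval of 91.3 to 97.5% that overlaps that of chromosome 11. Bitter taste receptor genes (TAS2R), another family of single-exon receptors, had 24 of 24, and trace amine receptor genes (TAAR) had 6 of 7. The other 1369 gene names of chromosome 11 had 13.4%. These shares describe the models in the file and not the full structure of the genes. In GENCODE release 44, compared further below, 65 of 154 single-exon members that are coding there (42.2%) had a multi-exon coding transcript.

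The median spliced length of the longest model per gene was 948 bases (quartiles 936 and 1023.5) on chromosome 11 and 951 bases on other chromosomes. It was 2225 bases in the other genes of chromosome 11. The shortest member was OR5E1P with 521 bases, then OR10V2P with 770 and OR8U8 with 866. The longest were OR51E1 with 3104 bases, OR51E2 with 2785 and OR9Q1 with 2438.

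Most models were nothing but a coding sequence. Read on the genome, the longest frame from ATG to a stop had a median of 314 codons without the stop in the 164 members with a coding accession. It was 317.5 codons in class I and 312 in class II. In 161 of the 164 the frame had at least 290 codons. The 3 below that length were OR8U8 (276), OR4C45 (261) and OR8G1 (258), and the shortest above it were OR10AG1 (301), OR10A2 (303) and OR4X2 (303). In 126 of the 157 single-exon coding members (80.3%, 95% interval 73.2 to 86.2%) the model began with the A of the start codon and ended with the last base of the stop codon. These models therefore held no untranslated base. Counted over single-exon models, 127 of 169 (75.1%) did so. The share was 67.3% in class I (33 of 49, interval 52.5 to 80.1%) and 86.1% in class II (93 of 108, interval 78.1 to 92.0%). On other chromosomes it was 85.6% (173 of 202).

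The other 31 single-exon coding members carried short flanks, with a median of 43 bases before the frame and 67 bases after it. OR10W1, with 402 bases before its frame, and OR6A2 with 200 had the longest leaders among them. The longest frames were those of OR4C15 (370 codons) and OR56A4 (365 codons), both in models that equal their frame. The pseudogene names had 22 codons (OR5E1P) to 207 codons (OR7E5P), well under the coding members.

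**Figure D1:**
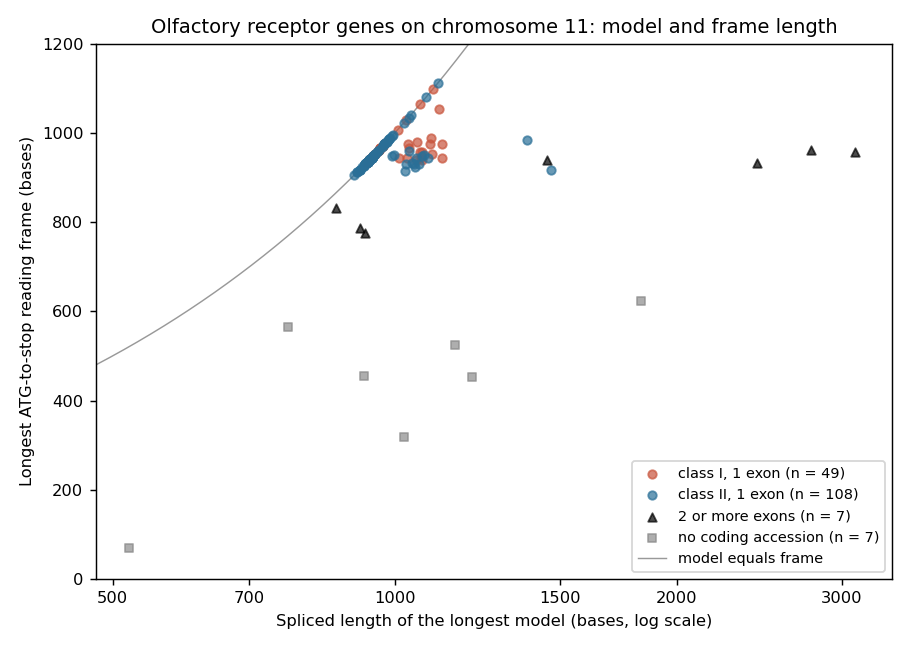
Spliced length of the longest model (x axis, bases, log scale) against the longest ATG-to-stop frame (y axis, bases), 1 point per gene. The 126 single-exon coding genes on the grey line have models that equal their frame, OR9Q1, OR51E2 and OR51E1 lie far to the right, and the 7 genes without a coding accession lie lowest.

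A short stretch shared by most members lies at the cytoplasmic end of a membrane helix, where receptors of this type carry aspartate, arginine and tyrosine in a row, a site known to matter for coupling to the G protein. Codons for these residues in frame were present in 108 of the 161 long coding frames (67.1%), in 27 of 52 class I frames and 81 of 109 class II frames. The median position of the first was codon 121. The 30 bases around them are shown for the first member along the chromosome that has them in each of 8 families, with the 3 codons in capitals, on the strand of the gene and on GRCh37 coordinates.
OR51E1, chr11:4674117-4674146, plus strand: atggcttttGACCGCTATgtggccatctgt
OR52K2, chr11:4470927-4470956, plus strand: atggcctttGACCGCTATgtggctatctgc
OR56B1, chr11:5758125-5758154, plus strand: atggcttttGATAGATATgtggctatttgt
OR2AG2, chr11:6789808-6789837, minus strand: atggcctatGACAGGTATgtggccatttgt
OR5P3, chr11:7847139-7847168, minus strand: atggcctatGATCGCTATgtggccatctgc
OR6A2, chr11:6816544-6816573, minus strand: atggcctatGATCGCTATatggccatctgc
OR8H2, chr11:55872870-55872899, plus strand: atggcccatGATCGCTATgcagcgatctgc
OR9G9, chr11:56468212-56468241, plus strand: gtggcttatGACCGCTACgtggccatctcc

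The 3 class I windows, OR51E1, OR52K2 and OR56B1, had a phenylalanine codon just before the capitals. Of the class II windows, OR8H2 had a histidine codon there and the others a tyrosine codon. Over all frames with the 3 codons, a phenylalanine codon stood there in 16 of 27 class I members (59.3%) and in 7 of 81 class II members (8.64%). A tyrosine codon stood there in 4 class I members (14.8%) and in 64 class II members (79.0%). In the longest frames these codons came late, at codon 176 in OR56A4 and 174 in OR4C15. A frame without the exact 3 codons may hold a related triplet, which was not searched.

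Only 8 members had a model of more than 1 exon, and they were of different kinds. In OR51E1, OR51E2, OR9Q1 and OR51B5 the frame lay in a single exon and the other exons held bases before it. OR51E1 had a first exon of 105 bases, OR51E2 one of 194 bases, and their introns measured 8457 and 14891 bases. Both also had long tails after the frame, of 2003 bases in OR51E1 and 1578 in OR51E2. OR9Q1 had leader exons of 224 and 78 bases, introns of 31765 and 123483 bases, and a frame of 310 codons in its last exon. OR51B5 had 2 models of 5 exons that differed in the last exon. Its coding model held a frame of 312 codons in a last exon of 1116 bases. In its non-coding model the last exon measured 480 bases and began further along the gene. OR7E5P, a pseudogene name, had 4 exons and a longest frame of 207 codons.

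OR4C45, OR8G1 and OR8U8 were the coding members in which the longest frame had fewer than 290 codons. Of the 15 distinct introns of the 8 members, 11 began with GT and ended with AG. The 4 others were the single introns of these 3 genes and the last intron of OR7E5P. The gap in OR8U8 measured 10 bases, between exons of 798 and 68 bases. OR8U8 shared its start and its locus with OR8U1, whose single exon of 930 bases runs through the gap with a frame of 309 codons. The bases that OR8U8 leaves out are in capitals below, with 15 bases on either side.
OR8U8, chr11:56143883-56143922, plus strand: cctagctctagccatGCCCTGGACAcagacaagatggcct

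At OR8G1 and OR4C45 the sequences at both ends of the intron resembled each other. Each line gives the last or first 12 bases of the exon beside 12 bases of the intron, with the first or last 2 intron bases in capitals.
OR8G1, intron start, chr11:124121272-124121295, plus strand: atgttgaaccctCTgagctacata
OR8G1, intron end, chr11:124135677-124135700, plus strand: atgctgaaccCCctgatctacagc
OR4C45, intron start, chr11:48373690-48373713, minus strand: tcttcacagaacATttcttttatt
OR4C45, intron end, chr11:48367509-48367532, minus strand: cccccacagaACatttctttgagg

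Set base against base, the windows matched at 19 of 24 bases in OR8G1 and at 18 of 24 in OR4C45. In the 11 GT-AG introns of the other members the same comparison gave 1 to 12 matches, with a median of 7. The last intron of OR7E5P, also without GT-AG ends, gave 4. The OR8G1 intron of 14405 bases ended inside the span of its neighbour OR8G5, so that a first exon of 861 bases from OR8G1 was joined to 68 bases within OR8G5, and both genes shared 1 locus in the file. A second OR8G1 model, with a non-coding accession, had a single exon. The longest OR8G1 frame stopped after 258 codons, before the end of the first exon.

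OR51B5 spanned 5362113 to 5526882 on the minus strand, and its first intron alone measured 158658 bases. That intron held 6 other receptor genes, each with a single exon. OR51B6 (5372738 to 5373676), OR51M1 (5410607 to 5411664), OR51Q1 (5443341 to 5444436), OR51I2 (5474638 to 5475707) and OR52D1 (5509915 to 5510978) lay on the plus strand, opposite to it. OR51I1 (5461772 to 5462783) lay on the minus strand, as OR51B5 does. The 5 plus-strand genes were the only members with a second model under a Cufflinks assembler name, and each second model had exactly the span of the RefSeq transcript. OR51I1 had 1 model.

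In the whole file, 93 models of exact-match class carried an assembler name, and 38 of them had a single exon. Of these 38, 26 (68.4%) lay inside an intron of a gene on the other strand. Among 3930 single-exon RefSeq models on chromosomes 1 to 22, X and Y, 302 (7.68%) did. Many of the 26 shared a host gene, as the members inside OR51B5 did, so they were not independent of each other. The sixth olfactory receptor among the 38 was OR2A4 on chromosome 6, inside ENPP3 on the other strand. OR7E12P inside LOC650368 and OR9I1 inside OR9Q1 also lay in introns of genes on the other strand and had 1 model each. A second model with the span of its reference adds no exon, and the file does not say from which library it came. Why such copies were kept was not tested.

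**Figure D2:**
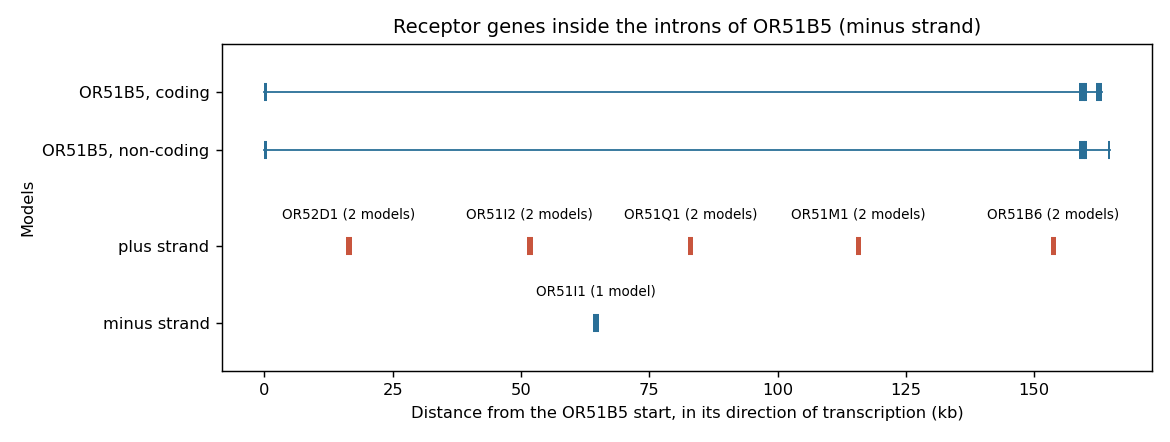
Both OR51B5 models (top; thick bars are exons, drawn with a minimum width) and the 6 receptor genes inside its first intron, by distance from the OR51B5 start in its direction of transcription (x axis, kb). The 5 plus-strand genes have 2 models each and the minus-strand gene OR51I1 has 1.

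The members stood in a few dense arrays. With neighbours at most 500 kb apart joined, there were 14 groups, 4 of which held a lone gene: OR7E12P, OR7E14P, OR2AT4 and OR7E2P. The largest ran from OR52B4 to OR52W1 (4388493 to 6221416 on hg19, 1833 kb) and held 52 genes, exactly the class I members. The next ran from OR4A16 to OR5AK4P (55110677 to 56805935, 1695 kb) with 48 genes of 6 families, 25 of them OR5. The array from OR6X1 to OR8A1 (123624288 to 124440945) had 21 genes, 12 of them OR8. The array from OR9Q1 to OR5B21 (57791353 to 58275578) had 13, and that from OR5AN1 to OR10V2P (59131932 to 59517054) had 9. OR2AG2 to OR2D3 (6789238 to 6943225) held 8 genes at 51.95 per Mb, the densest of the arrays with 5 or more genes. OR4B1 to OR4A47 (48238362 to 48511274) held 7 genes, all OR4. OR5P2 to OR10A3 (7817521 to 7961067) held 5. The pairs OR4C13 with OR4C12 and OR4A5 with OR4C46 completed the set.

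The longest stretch without a member, 37.1 Mb, separated OR7E2P from OR6X1, and 31.2 Mb separated OR7E14P from OR4B1. INS itself (2181009 to 2182439) lay outside the arrays, 1230 kb from the nearest member, the pseudogene OR7E12P. The class I array enclosed 17 other genes. The beta-globin genes stood between OR51V1 and OR51B4: HBB, adult beta-globin, had its edge 24.8 kb from the OR51V1 frame, and HBE1, embryonic epsilon-globin, had its edge 30.9 kb from the OR51B4 frame. HBD, HBG1 and HBG2 lay between HBB and HBE1. MMP26, a matrix metalloproteinase, stood 6.55 kb from OR51L1. TRIM6, TRIM34, TRIM5 and TRIM22, genes of antiviral tripartite motif proteins, filled the stretch from OR52B6 to OR56B1.

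**Figure D3:**
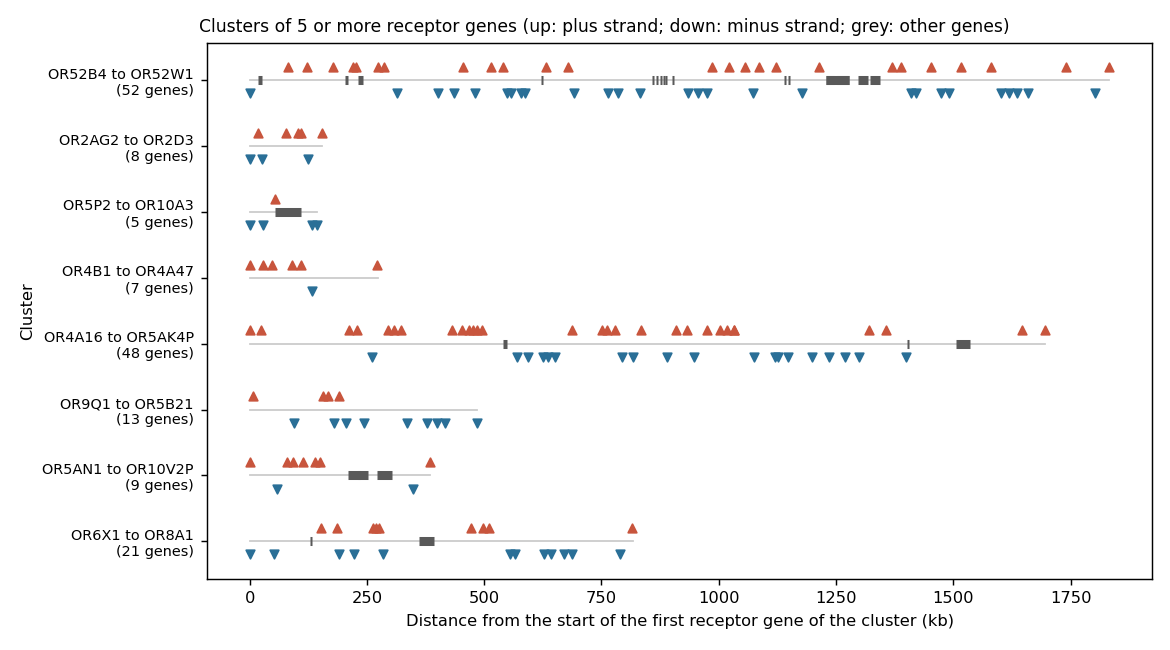
The 8 arrays of 5 or more receptor genes by distance from the start of the first receptor gene (x axis, kb), with plus-strand genes as upward and minus-strand genes as downward triangles and other enclosed genes in grey. The class I array at the top, OR52B4 to OR52W1, encloses 17 other genes.

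Strands were mixed within arrays, in short runs. Of the 171 genes, 89 (52.05%) lay on the plus strand and 82 on the minus strand. In chromosome order, with runs ended at the ends of arrays, there were 76 runs of genes on the same strand. Of these, 40 were a single gene, 16 were 2 genes, 6 were 3 genes and 4 were 4 genes, while 4 runs held 5 genes and 4 held 7. The longest, of 9 genes on the plus strand, ran from OR4P4 to OR5D16 through OR4S2, OR4C6, OR5D13, OR5D14, OR5L1, OR5D18 and OR5L2. The next, of 8 genes on the minus strand, ran from OR5R1 to OR5AP2 and held all 6 OR5M genes. Runs of 7 genes went from OR52K2 to OR51E1 on the plus strand and, on the minus strand, from OR52E2 to OR51B5, from OR10Q1 to OR5B21 and from OR8D1 to OR8B12. The last 2 held all 5 OR5B and all 5 OR8B genes. OR4 lay mostly on 1 strand, with 20 of 24 genes on the plus strand. The class I families were even, with 12 and 12 for OR52 and 10 and 12 for OR51 on plus and minus strands.

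Of 157 neighbouring pairs within arrays, 95 (60.5%, 95% interval 52.4 to 68.2%) were on the same strand, 30 converged and 32 diverged. In pairs of the same subfamily 44 of 62 (71.0%, interval 58.1 to 81.8%) shared a strand. In pairs of the same family but different subfamilies 30 of 57 (52.6%, interval 39.0 to 66.0%) did, and in pairs of different families 21 of 38 (55.3%, interval 38.3 to 71.4%) did. The 3 intervals overlap.

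**Figure D4:**
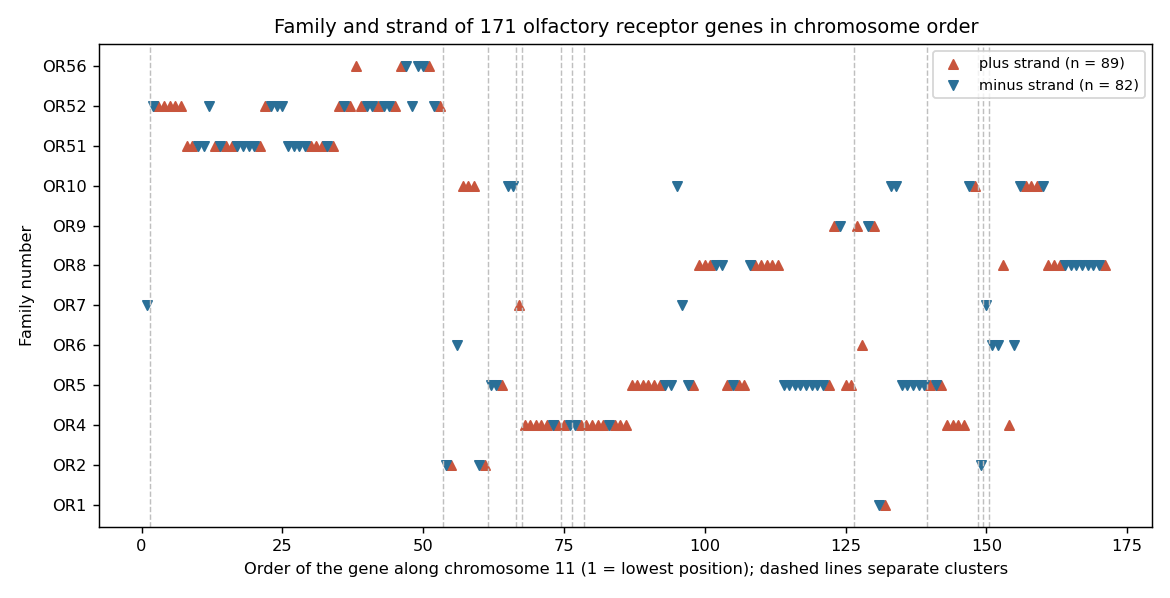
Family number (y axis) of each of the 171 genes against its order along chromosome 11 (x axis), with strand by colour and triangle, and array boundaries dashed. OR51, OR52 and OR56 fill the second group alone, and OR8 fills an unbroken stretch of 11 genes at the right end.

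Families stayed together. Of the neighbouring pairs, 119 of 157 (75.8%) were of the same family and 62 (39.5%) of the same subfamily. The longest unbroken stretch of a family was 11 genes for OR8, in the array from OR6X1 to OR8A1, and 9 genes for OR5 and for OR51. OR52 was split into 7 stretches between OR51 and OR56 genes, the longest of 7 genes. OR10 had 15 members in 6 arrays and OR4 had 24 in 6 arrays. Of 43 subfamilies with at least 2 members, 37 lay in 1 array, 24 formed an unbroken block, and 18 were on 1 strand. OR5M with 6 genes, and OR5B and OR8B with 5 each, were all 3 at once. The largest subfamily, OR4C, had 9 genes in 4 arrays.

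The median distance between the spans of neighbouring genes was 23.1 kb (n = 157). The values that follow run from each frame to the next in the order of the frames, which leaves leader exons out. The median was then 24.5 kb (quartiles 14.4 and 43.3 kb, n = 157). It was 19.5 kb in pairs of the same subfamily (n = 63) and 34.3 kb in pairs of different families (n = 37). Same-strand pairs had a median of 21.8 kb, convergent pairs 23.9 kb and divergent pairs 32.1 kb. Where another gene stood between, it was 81.0 kb (n = 13), against 22.2 kb where none did (n = 144). Between the spans of same-family neighbours the median was 9.91 kb in OR10 (9 pairs), 16.4 kb in OR8 (19 pairs), 28.9 kb in OR52 (17 pairs) and 50.9 kb in the single OR6 pair.

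The closest frames that do not overlap were those of OR4D5 and OR6T1, which converge with 2293 bases between them, then OR10G9 and OR10G8 with 5674 and OR10A2 and OR10A4 with 5981, both on the same strand. The frames of OR8U8 and OR8U1 overlapped. OR6Q1 lay within the span of OR9Q1, but their frames were 147538 bases apart. The widest gaps within arrays were 245 kb from OR9G4 to OR5AK2, 197 kb from OR4D9 to OR10V1, where OSBP and PATL1 stand, and 186 kb from OR10G7 to OR8G2, around VWA5A.

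Neighbours were also the closest relatives in sequence for many members. The frames of the 161 long coding members were translated and aligned in pairs, and identity was counted over aligned residues. Immediate neighbours had a median identity of 56.6% (quartiles 46.8 and 68.1%, n = 145). Members of the same array that were not neighbours had 44.4% (n = 2518), and members of different arrays had 33.9% (n = 10217). The last value holds all pairs between the classes, which had a median of 30.8% and reached at most 39.7%. Within class II alone, the medians were 58.3% for neighbours, 46.0% for other members of the same array and 42.4% for different arrays. Within arrays the median was 49.9% at 2 places apart, 46.8% at 3 to 5, 45.0% at 6 to 10 and 42.9% at 21 to 60. Pairs 21 or more places apart can come only from the arrays of 52 and 48 genes. The arrays that contribute therefore differ between distances.

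For 79 of the 161 (49.1%) the most similar member was an immediate neighbour, and for 138 (85.7%) it was in the same array. The second share was partly fixed in advance. All 52 class I members stand in 1 array, and no pair between the classes passed 39.7%, so their best match lay there. The 23 with a best match in another array were all among the 109 class II members. For 158 it was of the same family, as the naming rule favours. The exceptions, by the names in the file, were OR2AT4 and the neighbours OR8U1 and OR5R1. The best match of OR2AT4 was OR10A2 at 43.3%. OR8U1 and OR5R1 were each other's best match at 68.0%, on opposite strands. Of the 23 whose best match lay in another array, OR4C13 and OR4C46 were each other's best at 83.8%.

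**Figure D5:**
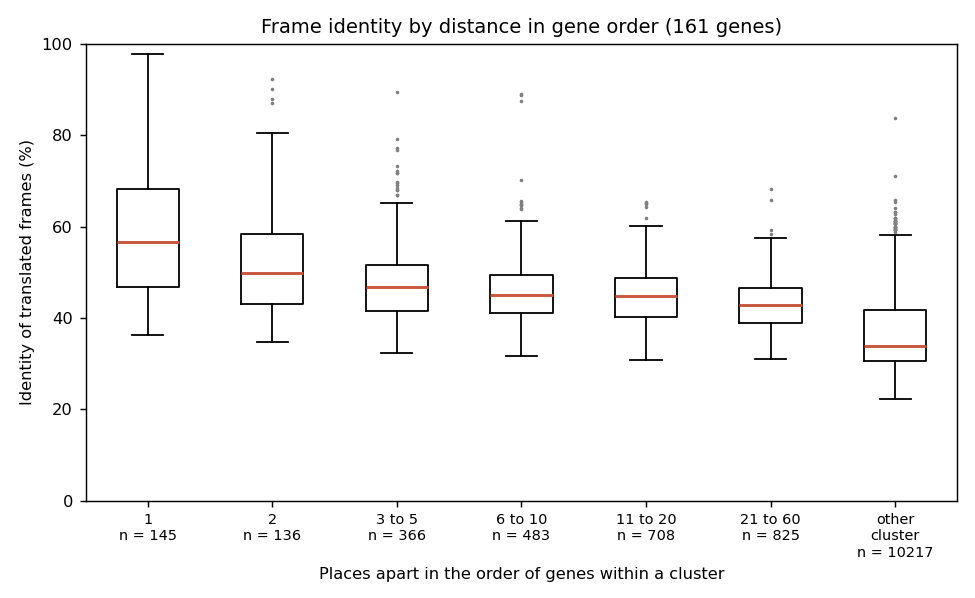
Percent identity of translated frames (y axis) by the number of places between 2 genes of the same array, with pairs of different arrays at the right; boxes are quartiles, red lines medians, whiskers reach 1.5 times the box and dots lie beyond. The median is highest for immediate neighbours, 56.6%, and lowest between arrays, 33.9%.

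The most similar pairs were immediate neighbours on the same strand: OR8B2 with OR8B3 (97.8%), OR51A4 with OR51A2 (96.8%), OR10A5 with OR10A2 (95.7%), OR5M10 with OR5M1 (95.6%) and OR52I2 with OR52I1 (95.1%). OR8B2 and OR8B3 differed at 12 of 942 bases, which changed 7 codons in meaning. The 60 bases of their frames that hold the most differences start at base 241 of the frame, with the differing bases in capitals.
OR8B2, chr11:124252940-124252999, minus strand: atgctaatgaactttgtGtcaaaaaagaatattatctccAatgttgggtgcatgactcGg
OR8B3, chr11:124266948-124267007, minus strand: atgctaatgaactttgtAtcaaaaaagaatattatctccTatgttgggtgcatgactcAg

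Reads from such pairs can be hard to assign to 1 copy, so values counted on these models may be uncertain for them. This was not examined, as the file holds no reads. The GC content of the frames had a median of 45.7%, 48.1% in class I and 45.2% in class II, and ran from 38.0% in OR10AG1 to 57.5% in OR10Q1.

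GENCODE release 44, mapped to the same build, gave some of these genes more exons. By name 166 members were found there, 159 of them protein-coding, and the frame was identical to a coding sequence there in 144 of the 159 (90.6%). Of 154 members with single-exon models alone that are coding in GENCODE, 65 (42.2%) had a coding transcript of more than 1 exon there, with up to 4. The other 89 had single-exon coding transcripts alone. Among coding models OR51B5 went the other way, with 5 exons in the file and 1 coding transcript there, a single exon of 939 bases. GENCODE listed 5 transcripts for it, and the exons of the non-coding ones were not compared. Of 124 whose model equalled the frame, 59 had a longer coding transcript there. The single-exon share given above is therefore that of the RefSeq models in the file. GENCODE also listed 192 chromosome 11 names of this form that were not protein-coding, and 7 of those were members.

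RefSeq windows of 250 bases before to 50 bases after the gene start (GRCh38.p14) were matched for 128 members. In 53 of the 106 with a model equal to the frame, the window's start was the ATG itself. For these it marks the coding start and not a mapped promoter. Among the rest of the 106, the frame start was not in the window in 45. It lay before the RefSeq start in 6 and inside the 50 bases after it in 2. The shares below pool all 128 windows. The windows had a median GC content of 37%, against 38.3% at olfactory receptors on other chromosomes and 58.7% at all genes. TATAAA was found on either strand in 46 of the 128 (35.9%), in 32.3% of the windows elsewhere and in 11.5% of all windows. TAATTA was found in 24.2% of the member windows, in 21.6% elsewhere and in 4.84% of all windows. The palindromic core motif of early B cell factors, transcription factors of olfactory neurons, was found in 1 of 128 (0.781%), in 0.599% of the windows elsewhere and in 1.21% of all windows. Overlaps between motifs were kept, and windows were not matched for GC content.

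No member had a joined model, a new isoform that shares at least 1 splice junction with a reference transcript. The count was 0 of 171, against 10.6% of all gene names, but 163 of the 171 had single-exon models alone and could not have one, so the count bears on the other 8 genes. Of the 169 loci that held members, 166 had 1 RefSeq accession. Only the locus of OR8U1 and OR8U8 and that of OR8G1 and OR8G5 held more than 1 gene name.

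Of 18 listed genes linked to the work or the expression of the receptors in sensory neurons, all were in the file. Only 1 had single-exon models alone. GNAL, the G protein alpha subunit of olfactory signalling, had up to 13 exons, ADCY3, the adenylyl cyclase it activates, had 21, and CNGA2, a subunit of the cyclic nucleotide-gated channel, had 7. That 1 was OMP, olfactory marker protein, with a single exon of 492 bases, itself on chromosome 11. CNGA4, a channel subunit with 6 exons, stood at 6260322 to 6265707, beyond the end of the class I array. Of the 18, 2 had a joined model, PDE1C and SLC24A4, a share near the 10.6% of all gene names.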

How the data were processed

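The deposited file gives exon starts and ends in bases, counted from 1, and no abundance. Cufflinks stands as the source of every line, and the tags are of the Cuffmerge and Cuffcompare kind, per the file itself. The submitters' processing notes name TopHat2 with Cufflinks and the build hg19, with no version. How reads were filtered, aligned and merged is not stated in the sources used here. Models were rebuilt in Python 3.11.15 with numpy 2.4.6 and scipy 1.17.1, 1 span per gene name. Genome sequence came from GRCh37. Arrays joined neighbours at most 500 kb apart. The longest frame per gene was translated and aligned with Biopython 1.88 (global, BLOSUM62, gap opening 11, extension 1) where it had at least 290 codons and a coding accession; MAFFT 7.526 was an alternative. Protein identity had been planned on RefSeq proteins, which were not used here. The procedures were tested on simulated arrays and frames. Genes were named by rule: extremes of exon number, length and spacing, ends of arrays and long strand runs, most similar pairs, models with unusual introns or shared loci. Further genes named beside identity, flanks and codons were chosen after their values were seen. Members and lists were chosen with earlier results of these data known. Groups came from the sample titles. Some enclosed genes and codon windows are not reported here.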

Additional observations from a re-analysis of the deposited data

How the results depend on the processing

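No paired analysis was possible because all 6 libraries share 1 set of models, and leaving out a library could not be done for the same reason. The number of groups of neighbouring genes depended on the distance allowed: there were 14 at 500 kb, 25 at 100 kb and 9 at 1000 kb. The other 23 of 25 alternatives, stayed within 1.5 times the value given for counts and within its 95% interval for shares and medians. The number of strand runs ranged from 68, without breaks at the ends of arrays, to 80, with breaks at any other gene, and was 76 otherwise except for 70 with coding accessions only. The share of neighbouring pairs of the same family ranged from 75.6 to 78.5%. Models that equal their frame made up 71.3% of all models. Identity of neighbours was 56.3% in a multiple alignment. Frame-to-frame spacing, frame order and leaving out OR8U8 were chosen after seeing the data. As the file holds no reads, their number cannot bound any of these values.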
